A study of Homo sapiens with 12 samples.

Results

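The comparison set SNU638 cells carrying the first of 3 short hairpin RNAs against SKA2 beside SNU638 cells carrying a control hairpin. Its members are 6 of the 12 libraries of the series, the 3 titled sh-SKA2-1 and the 3 titled sh-control, and they were chosen by title alone. SNU638 is an established human gastric cancer cell line. Both lines were infected with packaged lentivirus and kept under puromycin as stable cells, so the virus and the drug are shared by both groups. The control line has the genotype label wt and the other line SKA2 knockdown. Each group is 1 line, and whether a line goes back to 1 clone is not given in the sources used here, so an effect of the hairpin and a difference between 2 lines cannot be told apart. The series asked which genes SKA2 regulates in gastric cancer cells, and polyadenylated RNA of each library was sequenced. Nothing in the labels ties the 3 libraries of either line to independent cultures. The p-values below thus measure only spread among libraries within lines, and that spread may be technical. In the main edgeR fit it was estimated over all 12 libraries, those of hairpins 2 and 3 included.

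SKA2 is a small protein of the SKA complex, named for spindle and kinetochore. With SKA1 and SKA3 it binds the outer kinetochore next to the NDC80 complex and helps to keep chromosomes attached to the ends of spindle microtubules while these shorten. Cells short of the complex are known to hold chromosomes poorly at the metaphase plate and to delay anaphase. In several carcinomas SKA2 has been described as a gene of proliferating cells. Several groups of genes below belong to the integrated stress response, in which the transcription factor ATF4 raises genes of amino acid supply when translation initiation is braked.

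The table lists 17303 genes, and library totals ran from 14988007 to 16739155 counts. The expression filter left 12868 genes. Levels are given as CPM, the count of a gene scaled to a common library total. The 3 hairpin 1 libraries lay close together, and the 3 control libraries did not. The SD over genes of the log2 difference between a pair of libraries was 0.256 to 0.262 with hairpin 1 and 0.299 to 0.504 among the controls, where control replicates 1 and 3 lay farthest apart. Part of this spread followed transcript length. Genes were set in 10 groups of equal size by transcript length. Lengths in bp are effective lengths implied by the deposited counts and FPKM, which for short transcripts lie below the full length. In the group with the shortest transcripts (median 699 bp) control replicate 3 lay 0.50 above control replicate 1 on the log2 scale, and in the group with the longest (median 8183 bp) it lay at -0.54. Hairpin 1 against control ran the other way, with a median log2 difference of -0.52 among the shortest and 0.65 among the longest. The counts by gene list below are therefore given from the fit as designed and from a length-corrected fit, in which a smooth trend on transcript length was taken out of each library. In the length-corrected fit the medians of the 10 groups lay between -0.02 and 0.04. What produced the trend was not tested.

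**Figure D1:**
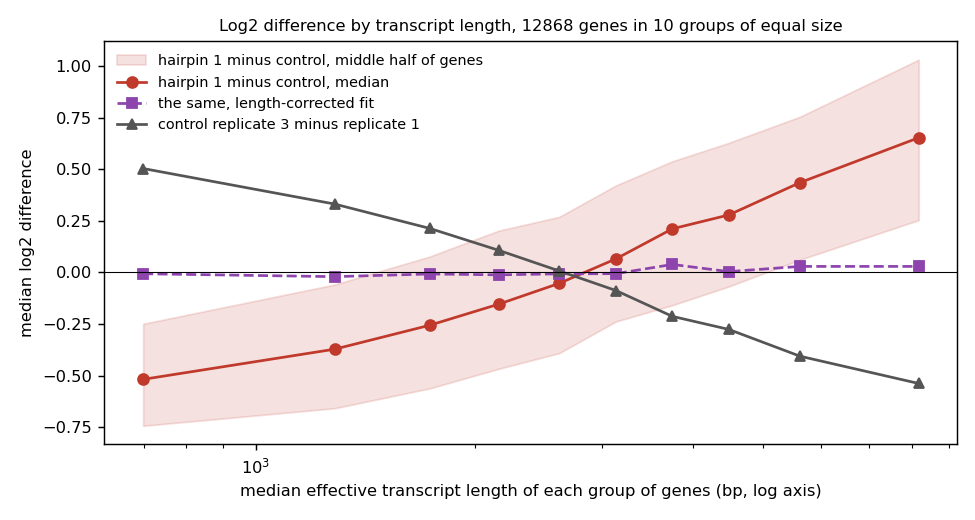
Median log2 difference (vertical axis) against effective transcript length in bp (horizontal, log axis) for 12868 genes in 10 groups of equal size. Circles show hairpin 1 minus control with the range between the quartiles shaded, squares the same after length correction, and triangles control replicate 3 minus replicate 1. The hairpin 1 medians climb from -0.52 to 0.65, the control pair runs from 0.50 down to -0.54, and the corrected medians stay near 0.

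The markers of the labelled cell type were present, with exceptions. All 10 epithelial markers were detected, with a summed level of 3590 to 3990 TPM in the control libraries and 3370 to 3510 TPM with hairpin 1, led by KRT18 and KRT8. TPM is a level that takes transcript length into account. CDH1, the epithelial cadherin, was low, at 1.46 TPM in the controls and 3.56 TPM with hairpin 1, and CLDN4 lay at 0.793 and 0.423 TPM. Summed fibroblast, leukocyte and muscle markers lay at 2.31 TPM or lower in each of the 6 libraries, hepatocyte markers at 2.18 to 3.26 TPM and erythroid markers at 1.96 to 6.32 TPM. The endothelial sum was 4.54 to 10.7 TPM in the controls and 0.73 to 2.11 TPM with hairpin 1. In the controls it came mostly from MCAM, MYCT1 and ROBO4, and with hairpin 1 the highest endothelial marker was CLDN5 (mean 0.147 TPM in the controls and 0.543 TPM with hairpin 1), while KDR and EMCN, defining endothelial genes, were listed at 0 in the 6 libraries. The neural sum (280 to 290 and 203 to 212 TPM) was almost all TUBB3, a tubulin gene that carcinoma lines can express.

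The targeted transcript was lower in each hairpin 1 library. SKA2 (Entrez 348235) lies on the minus strand of chromosome 17, at chr17:59109951-59155269 (GRCh38, GENCODE v29), and stood at 126, 119 and 117 CPM in the control libraries and 26.0, 22.3 and 23.6 CPM with hairpin 1. The groups did not overlap, and the hairpin 1 mean lay 80.1% below the control mean, with 5656 reads over the 3 control libraries and 1115 over the 3 hairpin 1 libraries. The log2 fold change was -2.33 ± 0.08 (SE, n = 3 per line), with an adjusted p of 6.09e-09 in edgeR's quasi-likelihood test. For CPM, an exact two-sided permutation test over the 6 libraries returned p = 0.1, and this design cannot go lower. Fewer cells that express a gene and less RNA of it per cell cannot be told apart in these bulk libraries.

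The partners of SKA2 moved by less. SKA1, the subunit that binds microtubules, was at 78.2, 82.5 and 78.8 CPM in the control libraries and 40.6, 42.8 and 43.9 CPM with hairpin 1. All its hairpin 1 libraries lay below all controls, and it fell by 0.91 ± 0.07 on the log2 scale. SKA3, the third subunit, stood at 86.8, 85.2 and 84.1 CPM in the control libraries and 73.3, 74.3 and 69.2 CPM with hairpin 1, and its fall was small (-0.24 ± 0.06). It was not called with limma on log2(TPM + 1), where its value was 0.14, below the median of all genes on that scale. PRR11 is a proliferation gene that shares a head-to-head promoter region with SKA2 and lies at chr17:59155499-59204705 on the plus strand. Its control libraries spread from 82.4 to 118 CPM and its hairpin 1 libraries from 93.3 to 102 CPM, so the groups overlapped. Its log2 fold change was -0.03 ± 0.15 (edgeR adjusted p = 0.89), and it was -0.41 in the length-corrected fit (edgeR adjusted p = 0.000492).

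**Figure D2:**
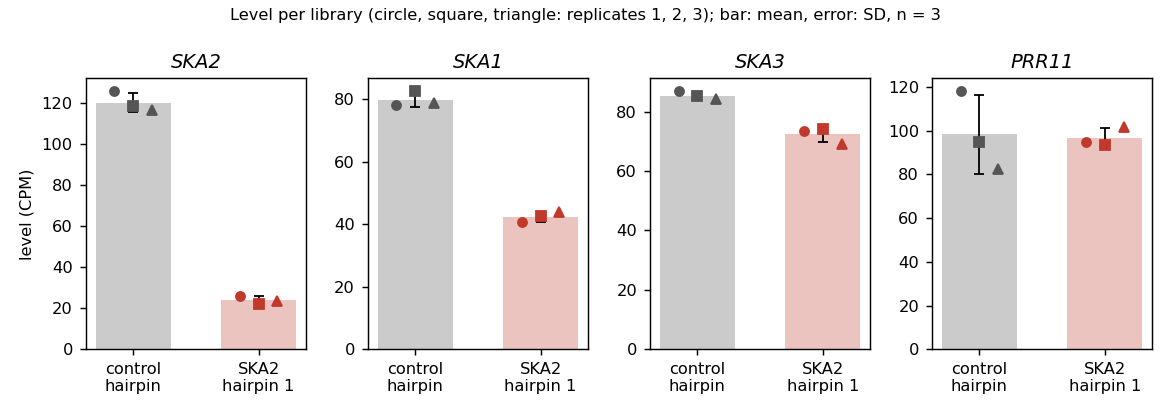
Level in CPM (vertical axes, from 0) of SKA2, SKA1, SKA3 and PRR11 in the 3 control and 3 hairpin 1 libraries. Points are libraries, bars are means and error bars SDs (n = 3). SKA2 drops from 120 to 24.0 CPM and SKA1 from 79.8 to 42.4 CPM, while the PRR11 groups overlap.

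Across the transcriptome the 2 lines differed widely. With calls made below an adjusted p of 0.05 in edgeR (Benjamini-Hochberg), 8114 genes differed, 63.1% of those tested, of which 4055 (31.5%) were higher and 4059 (31.5%) lower with hairpin 1. At least 2-fold changes were called for 909 genes upward (7.06%) and 606 downward (4.71%), for 1388 and 788 without control replicate 1, and for 503 and 530 in the length-corrected fit. Without overlap of libraries, 4499 genes (35.0%) lay higher with hairpin 1 and 4402 (34.2%) lay lower. The length-corrected fit called 3807 genes higher (29.6%) and 3932 lower (30.6%). The same direction was called in both fits for 2906 genes upward (22.6%) and 2918 downward (22.7%). At least 2-fold in both fits were 423 upward (3.29%) and 380 downward (2.95%). The fits called opposite directions for 171 genes. With limma on log2(TPM + 1) the median of all genes shifted by 0.29, and 78.9% of calls were higher against 50.0% in the fit as designed. On that scale the medians of the kinetochore, p53, transporter, ER chaperone, NRF2, interferon, MHC class I, receptor kinase, epithelial, integrin and MYC lists turned from below 0 to above it, and they are to be read against the shift. Without control replicate 1 the counts were 4502 higher and 4414 lower. Against shares of this size, a group of genes is described below by how far its members moved and how many moved 1 way, not by the number of calls alone. The median log2 fold change of all tested genes was 0.01.

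Genes of the integrated stress response had the lowest median of the 39 gene lists. Of 20 genes listed as ATF4 targets and amino acid response genes 17 passed the expression filter, and 17 of these 17 were lower in both fits. Their median log2 fold change was -2.75, and -2.54 after length correction. VLDLR, STC2 and FGF21 did not pass the filter. ATF4 itself, the transcription factor of the response, stood at 688, 804 and 849.8 CPM in the control libraries and 221, 217 and 222 CPM with hairpin 1, so its mRNA fell by 1.83 ± 0.11 on the log2 scale. Each hairpin 1 library lay far below each control. DDIT3, the stress factor also called CHOP, went from 162 to 36.8 CPM (-2.14 ± 0.16). The factors ATF3 (-2.11 ± 0.08) and CEBPB (-2.42 ± 0.09) fell alongside, and CEBPG and ATF5, dimer partners in the same family, were at -1.34 and -1.02.

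TRIB3, a pseudokinase that restrains AKT and ATF4 itself, was at 411, 485 and 541 CPM in the control libraries and 25.3, 22.2 and 22.8 CPM with hairpin 1. This is a fall of 4.35 ± 0.13 on the log2 scale (edgeR adjusted p = 2.02e-09). CHAC1, which breaks down glutathione, stood at 69.1, 80.4 and 91.8 CPM in the control libraries and 5.62, 5.12 and 4.50 CPM with hairpin 1 (-3.98 ± 0.16). SESN2, a sestrin that holds back mTORC1 when leucine is scarce, was at 285, 314 and 326 CPM in the control libraries and 25.9, 23.4 and 25.1 CPM with hairpin 1. The hairpin 1 values lay close together and far below the controls. DDIT4, another brake on mTORC1, went from 226 to 27.4 CPM (-3.05 ± 0.13). ASNS, asparagine synthetase, fell from 554 to 61.9 CPM (-3.16 ± 0.07), and PCK2, the mitochondrial phosphoenolpyruvate carboxykinase, from 138 to 20.5 CPM (-2.75 ± 0.10). The secreted factors ADM2 (-3.98 ± 0.15) and INHBE, an activin subunit (-4.51 ± 0.22), and the stress gene NUPR1 (-4.28 ± 0.45) were among the 15 largest falls of the transcriptome. INHBE was at 14.6, 14.4 and 14.2 CPM in the control libraries and 0.457, 0.714 and 0.697 CPM with hairpin 1. The smallest change of the list was that of XPOT, the nuclear tRNA exporter (-0.53 ± 0.12).

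**Figure D3:**
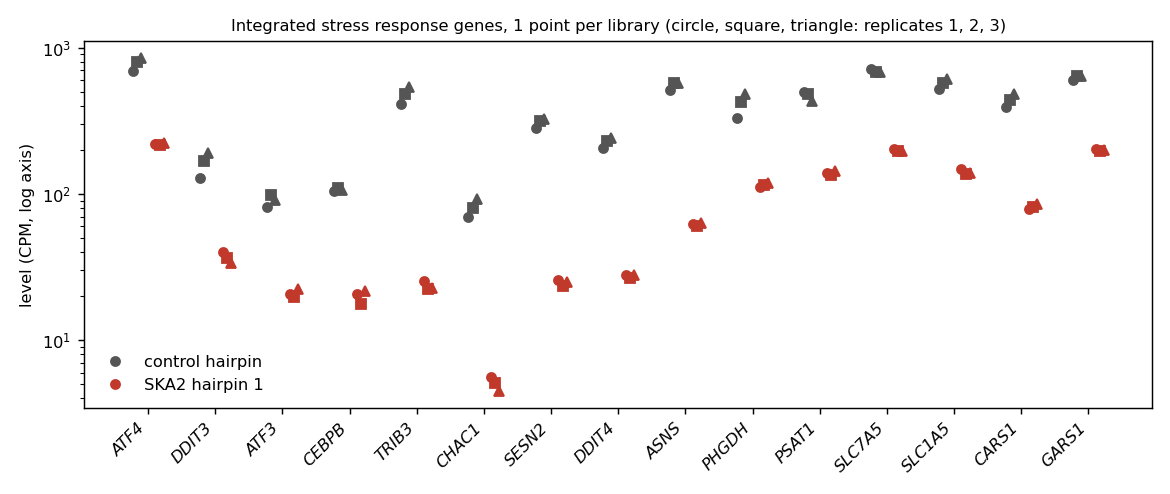
Level in CPM (vertical log axis) of 15 genes of the integrated stress response and amino acid supply, 1 point per library, with control libraries in grey and hairpin 1 in red. In each gene the 3 hairpin 1 points lie below the 3 control points. ATF4 goes from 780 to 220 CPM and TRIB3 from 479 to 23.4 CPM.

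ATF4 pairs with C/EBP factors on a composite site whose common core reads TGATGNAA. The 250 bases before the start of each gene were taken from RefSeq (GRCh38.p14), which held an entry for 10540 of the tested genes, and both strands were searched for that core. It was present in 253 of them (2.40%), in 5 of 15 ATF4 list genes with an entry (33.3%) and in 12 of 55 genes of the ATF4, synthesis enzyme, transporter and tRNA synthetase lists together (21.8%). The ATF4 list was drawn up from known targets of ATF4, so its share is no independent result. Nor is that of the lists together, which include it. SLC1A3, which holds the core too, rose (2.01 ± 0.28), and the genes displayed below fell with hairpin 1. Matches are shown 5′ to 3′ along the gene, with the core in capitals, which reads as its reverse complement in CHAC1, GOT1, GARS1 and AARS1.
ASNS: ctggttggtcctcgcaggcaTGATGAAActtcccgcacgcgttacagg
CHAC1: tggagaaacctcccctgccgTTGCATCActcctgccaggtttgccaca
ATF3: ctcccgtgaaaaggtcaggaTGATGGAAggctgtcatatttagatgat
GOT1: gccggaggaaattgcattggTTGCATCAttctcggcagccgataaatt
GARS1: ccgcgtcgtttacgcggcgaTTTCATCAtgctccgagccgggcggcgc
AARS1: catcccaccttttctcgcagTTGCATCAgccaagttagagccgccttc
SLC1A5: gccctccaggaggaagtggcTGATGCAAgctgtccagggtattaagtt
They lie at chr7:97872449-97872496 (ASNS, minus strand), chr15:40953242-40953289 (CHAC1, plus), chr1:212565196-212565243 (ATF3, plus), chr10:99430795-99430842 (GOT1, minus), chr7:30594825-30594872 (GARS1, plus), chr16:70289666-70289713 (AARS1, minus) and chr19:46784884-46784931 (SLC1A5, minus). Between 33 and 209 bases separated the first base of the core from the RefSeq start in these genes. The ASNS and CHAC1 stretches lie inside the wider gene bounds of GENCODE v29. A match is a description of the letters and was not tested for binding.

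Enzymes that make serine, one-carbon units and amino acids were mostly lower. Of 20 tested genes 12 fell and 3 rose, with a median of -0.87 (11 lower, 4 higher and -0.59 after length correction). The 3 enzymes of serine synthesis fell together. PHGDH, the first of them, was at 333, 422 and 484 CPM in the control libraries and 111, 116 and 118 CPM with hairpin 1, PSAT1 was at 498, 485 and 432 CPM in the control libraries and 140.2, 135 and 143 CPM with hairpin 1, and PSPH went from 101 to 47.8 CPM. The groups did not overlap in any of the 3, and the PHGDH controls were spread more widely than its hairpin 1 libraries. The mitochondrial folate enzymes MTHFD2 (-1.36 ± 0.06) and MTHFD1L (-1.01 ± 0.06) and the transaminases GOT1 (-2.00 ± 0.09) and GPT2 (-1.55 ± 0.07) fell as well. The cytosolic folate enzymes did not follow, with MTHFD1 at -0.06 and SHMT1 at 0.00, neither called in either fit. ALDH18A1 of proline synthesis (0.27) and GLUL, glutamine synthetase (0.52), both named after their values were seen, rose.

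Amino acid transporters moved both ways. Of 14 tested genes 7 were lower and 4 higher, with a median of -0.38 that became -0.96 after length correction (10 lower, 3 higher), 0.03 with limma on the TPM scale and -0.17 without control replicate 1. SLC7A5, the light chain of the large neutral amino acid exchanger, was at 719, 682 and 685 CPM in the control libraries and 202, 196 and 198 CPM with hairpin 1. Its heavy chain SLC3A2 went from 1039 to 347 CPM (-1.58 ± 0.12). The glutamine carrier SLC1A5 was at 520.1, 571 and 613 CPM in the control libraries and 149, 136 and 140.2 CPM with hairpin 1, and the neutral carrier SLC1A4 (-2.19 ± 0.08) and the glycine carrier SLC6A9 (-2.83 ± 0.15) fell too. SLC7A11, the cystine carrier, was at 427, 311 and 285 CPM in the control libraries and 291, 288 and 303 CPM with hairpin 1, with overlapping groups. It was not called in the fit as designed (-0.21 ± 0.21, edgeR adjusted p = 0.392) and was lower after length correction (-0.89). Of the 4 that rose, SLC6A6, the taurine carrier (1.33 ± 0.11), and the glutamate carrier SLC1A3 (2.01 ± 0.28, from 0.298 to 1.23 CPM) changed most. These 2 were named after their values were seen.

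Cytosolic aminoacyl-tRNA synthetases, which load amino acids onto tRNA, were lower in 15 of 20 and higher in 3, with a median of -0.53 (14 lower, 3 higher and -0.58 after length correction). CARS1, for cysteine, stood at 391, 440.0 and 484 CPM in the control libraries and 79.2, 81.9 and 85.3 CPM with hairpin 1 and changed most (-2.42 ± 0.10). GARS1, for glycine, was at 605, 642 and 644 CPM in the control libraries and 202, 198 and 201 CPM with hairpin 1. YARS1 (-1.74 ± 0.08), MARS1 (-1.22 ± 0.06), AARS1 (-1.19 ± 0.06) and WARS1 (-1.19 ± 0.06) were also lower.

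The chaperones of the endoplasmic reticulum showed a different pattern. Of 22 genes of the unfolded protein response 5 were higher and 7 lower, with a median of -0.09 (9 higher, 9 lower and 0.08 after length correction). HERPUD1, a part of the degradation machinery, was at 88.6, 97.5 and 93.9 CPM in the control libraries and 32.6, 31.8 and 32.4 CPM with hairpin 1 (-1.53 ± 0.07). XBP1, the transcription factor of the pathway, fell by 1.24 ± 0.07. HSPA5, the main chaperone of the compartment, was at 1051, 1075 and 1184 CPM in the control libraries and 756, 747 and 772 CPM with hairpin 1, a smaller fall (-0.54 ± 0.06) without overlap. HSP90B1 was at 0.14 ± 0.05, a call lost on leaving out any 1 library (edgeR adjusted p = 0.0523 to 0.133), and DNAJC3, which inhibits an eIF2 alpha kinase, rose by 0.93 ± 0.11. The heat shock chaperones were higher in 9 of 16 and lower in 4, with a median of 0.32 (10, 4 and 0.33 after length correction). HSPA8, the constitutive HSP70, was at 1433, 1492 and 1504 CPM in the control libraries and 2515, 2598 and 2612 CPM with hairpin 1, all hairpin 1 libraries above all controls. Its partner DNAJA1 (0.77 ± 0.05) and HSP90AA1 (0.56 ± 0.06) rose too. HSPA1A was at 1.04 ± 0.12, which is uncertain, since HSPA1B is almost a copy of it, and the HSPA1B value was 0.09 ± 0.11. HSPA9, the mitochondrial HSP70, fell by 0.73 ± 0.06.

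Chemokines and other NF-kB genes were mostly lower. NF-kB is the transcription factor that drives inflammatory cytokines and its own inhibitors. Of 26 tested genes 18 were lower and 1 higher, with a median of -0.87 (19 lower, 0 higher and -0.98 after length correction). The higher one was NFKB1, the p105 subunit (0.27), which was not called after length correction. CXCL1, a neutrophil attractant, was at 247, 294 and 307 CPM in the control libraries and 85.9, 82.6 and 79.7 CPM with hairpin 1. CXCL3 was at 116, 123 and 127 CPM in the control libraries and 19.0, 19.4 and 20.9 CPM with hairpin 1 and changed by more (-2.62 ± 0.08). CXCL1, CXCL2 and CXCL3 are close relatives whose reads can be split between them, and the 3 moved 1 way. CXCL8, interleukin 8, stood at 295, 265 and 232 CPM in the control libraries and 96.1, 91.4 and 93.5 CPM with hairpin 1, without overlap. CCL20, which attracts cells through CCR6, fell from 10.2 to 0.559 CPM (-4.17 ± 0.18). LIF, a cytokine of the interleukin 6 family, was at 589, 571 and 572 CPM in the control libraries and 216, 212 and 209 CPM with hairpin 1. IL1RL1, the receptor of interleukin 33, went from 20.5 to 1.92 CPM (-3.42 ± 0.17). The feedback genes moved by less. NFKBIA, the inhibitor of NF-kB, was at -0.25 ± 0.10 and lost its call after length correction (0.10), and TNFAIP3 was at -0.32 ± 0.12. NFKBIA kept its call of 6 single-library omissions only without control replicate 1 (edgeR adjusted p elsewhere 0.0525 to 0.128), and TNFAIP3 only without control replicate 2 or 3 (elsewhere 0.0583 to 0.15).

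A strict form of the NF-kB site, GGAATTTCC, was found on either strand in 58 of 10540 promoters (0.550%) and in 11 of 22 genes of the NF-kB list (50.0%). Many genes of that list are textbook targets of NF-kB, so the share is no independent result. NFKB1, which was called higher as designed, and NFKBIA, whose call was lost after length correction, hold the site too. So do CXCL2, CXCL5, CXCL10, NFKBIZ and REL, which are not displayed. The sites of some chemokine and adhesion genes that fell are shown with the motif in capitals, 5′ to 3′ along the gene, and in ICAM1 as the reverse complement.
CXCL8: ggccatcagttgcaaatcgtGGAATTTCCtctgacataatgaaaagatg
CXCL1: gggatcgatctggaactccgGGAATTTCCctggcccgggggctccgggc
CXCL3: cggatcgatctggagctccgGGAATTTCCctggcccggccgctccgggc
ICAM1: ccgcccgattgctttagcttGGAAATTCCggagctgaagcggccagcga
They lie at chr4:73740458-73740506 (CXCL8, plus strand), chr4:73869295-73869343 (CXCL1, plus), chr4:74038739-74038787 (CXCL3, minus) and chr19:10270914-10270962 (ICAM1, plus) in GRCh38.p14. ICAM1, an adhesion molecule for leukocytes, went from 302 to 142 CPM (-1.09 ± 0.06).

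Immediate-early genes and outputs of ERK signalling were lower in 20 of 32 and higher in 7, with a median of -0.43 (23 lower, 6 higher and -0.52 after length correction). FOS, a subunit of AP-1, stood at 27.3, 28.3 and 30.4 CPM in the control libraries and 7.18, 6.16 and 6.59 CPM with hairpin 1. EGR1, a zinc finger factor of the first response to growth factors, was at 525, 506 and 494 CPM in the control libraries and 177, 146 and 159 CPM with hairpin 1. Both groups of libraries were narrow and did not overlap in either gene. JUN (-1.24 ± 0.06) and IER3 (-1.16 ± 0.09) fell as well. DUSP6, the ERK phosphatase used as a readout of ERK activity, was at 221, 198 and 184 CPM in the control libraries and 194, 175 and 183 CPM with hairpin 1. Its groups overlapped and it was not called in the fit as designed (-0.13 ± 0.08, edgeR adjusted p = 0.155), and was at -0.23 after length correction. Among those that rose were ETV1 (1.47 ± 0.19), EGR3 (1.16 ± 0.14) and FOSL2 (1.03 ± 0.14), named after their values were seen.

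Of the ligands of the EGF receptor HBEGF and AREG fell, and the receptors gave mixed values. HBEGF was at 24.3, 26.6 and 28.3 CPM in the control libraries and 6.07, 5.45 and 5.58 CPM with hairpin 1 (-2.21 ± 0.12), and AREG, amphiregulin, was at 166, 168 and 180.4 CPM in the control libraries and 74.4, 70.4 and 75.4 CPM with hairpin 1 (-1.22 ± 0.08). EGFR, with overlapping groups, was at 1000.4, 657 and 562 CPM in the control libraries and 667, 691 and 676 CPM with hairpin 1. It was not called as designed (-0.13 ± 0.21) and was lower after length correction (-0.78). ERBB2 was at -0.04 and MET at 0.63 (0.21 after length correction). EPHB2 (-1.15 ± 0.07), AXL (-0.58 ± 0.06) and DDR1 (-0.65 ± 0.06), other receptor kinases, fell in both fits. Of 21 tested ligands and receptors 8 were higher and 7 lower as designed, against 4 and 12 after length correction. Their median of -0.13 became -0.30 with that correction, 0.22 on the TPM scale, 0.01 without control replicate 1 and -0.05 without hairpin 1 replicate 3.

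Enzymes and anchors of the pericellular matrix held some of the larger falls. PLAU, the urokinase plasminogen activator, stood at 197, 206 and 207 CPM in the control libraries and 44.7, 42.0 and 39.2 CPM with hairpin 1 (-2.28 ± 0.07), and its receptor PLAUR was at 73.7, 88.9 and 94.4 CPM in the control libraries and 25.6, 25.6 and 23.7 CPM with hairpin 1 (-1.78 ± 0.11). The collagenase MMP1 was at 83.5, 93.1 and 99.4 CPM in the control libraries and 12.7, 10.8 and 10.9 CPM with hairpin 1 (-3.00 ± 0.13). LAMB3, a chain of laminin 332, went from 19.1 to 2.56 CPM (-2.90 ± 0.12), and the integrin chains ITGB4 (-0.78 ± 0.08), its partner in hemidesmosomes, and ITGB5 (-1.09 ± 0.07) fell. ITGB1, the common beta chain, was at 0.21 and ITGA6 at 0.03, neither called as designed. ITGB8 rose from 0.871 to 6.11 CPM (2.80 ± 0.41). Over the 27 tested integrins, laminins and proteases 10 were lower and 8 higher, and 16 and 7 after length correction, with medians of -0.07 and -0.32.

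Among 26 listed angiogenic genes 12 passed the filter. Of these 6 fell, with 0 higher and a median of -0.97 (6, 0 and -0.82 after length correction). Without control replicate 1 the counts were 7 lower and 2 higher. With limma on log2(TPM + 1) they were 5 lower and 2 higher, with a median of -0.27. VEGFA, the main vascular growth factor, was at 103, 89.1 and 85.9 CPM in the control libraries and 38.7, 39.4 and 41.5 CPM with hairpin 1 (-1.21 ± 0.09). MCAM, an adhesion molecule of endothelium and of invasive tumour cells, was at 4.43, 24.6 and 37.0 CPM in the control libraries and 0.522, 0.714 and 1.14 CPM with hairpin 1, and control replicate 1 lay far below the other two. MYCT1 gave 114 reads over the 3 control libraries and 2 over the 3 hairpin 1 libraries and ROBO4 99 reads over the 3 control libraries and 4 over the 3 hairpin 1 libraries. As given above, the defining endothelial genes KDR and EMCN were at 0 in these libraries.

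Genes of p53 and of cell death did not move as 1 block. Of 22 p53 targets 11 were lower and 6 higher, with a median of -0.13 (11, 5 and -0.14 after length correction, and 0.25 on the TPM scale, below the all-gene shift there). CDKN1A, the cell-cycle inhibitor p21, was at 226, 253 and 243 CPM in the control libraries and 87.7, 83.0 and 87.9 CPM with hairpin 1 (-1.48 ± 0.07). GDF15, a secreted stress cytokine that ATF4 also raises, was at 189, 241 and 255 CPM in the control libraries and 26.4, 24.6 and 27.4 CPM with hairpin 1 (-3.13 ± 0.12). TNFRSF10B, a death receptor (-0.98 ± 0.07), and AEN (-0.77 ± 0.07) fell. MDM2, the ligase that degrades p53, was at 365, 271 and 229 CPM in the control libraries and 289, 296 and 297 CPM with hairpin 1, with overlapping groups and no call as designed (0.03 ± 0.19), and was at -0.53 after length correction. Among BH3-only and BCL2 family genes 11 of 19 were lower and 3 higher, with a median of -0.48 (10, 2 and -0.27 after length correction). BMF, a BH3-only activator of apoptosis, rose from 2.21 to 10.6 CPM (2.26 ± 0.12), and BCL2L11, the BIM gene, was at 26.8, 22.7 and 20.3 CPM in the control libraries and 54.7, 54.0 and 53.4 CPM with hairpin 1 (1.21 ± 0.11). BBC3, the PUMA gene, moved the other way (-1.46 ± 0.17). On the protective side BCL2A1 was at 27.4, 32.6 and 34.4 CPM in the control libraries and 5.62, 4.74 and 4.69 CPM with hairpin 1 (-2.65 ± 0.15), BCL2L1 fell by 0.94 ± 0.09 and BCL2L2 by 0.72 ± 0.08.

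Sterol genes were more often higher than lower. Of 24 genes of cholesterol synthesis and uptake 13 rose and 6 fell, with a median of 0.34 (13, 3 and 0.17 after length correction). HMGCS1, an early enzyme of the pathway, was at 66.9, 58.0 and 51.8 CPM in the control libraries and 163, 161 and 169.8 CPM with hairpin 1 (1.48 ± 0.11). All hairpin 1 libraries lay above all controls. INSIG1, the sterol-sensing anchor (1.41 ± 0.06), IDI1 (1.01 ± 0.06) and the sterol carrier STARD4 (2.05 ± 0.18) rose as well. Of 10 fatty acid genes 6 were higher and 1 lower with a median of 0.34, and 3 and 3 with -0.07 after length correction. SCD, the stearoyl desaturase, rose in both fits (1.31 ± 0.11 as designed, 0.98 corrected). FASN, at 0.42 as designed, was not called after correction (-0.23).

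BMP and TGF-beta signalling genes were higher in 11 of 22 and lower in 5, with a median of 0.43 (12, 6 and 0.34 after length correction). SMAD6, the inhibitor of BMP signalling, was at 1.08, 1.16 and 1.21 CPM in the control libraries and 7.44, 5.90 and 5.83 CPM with hairpin 1 (2.47 ± 0.19), and SMAD7 was at 0.56 ± 0.13. ID2, a BMP target, was at 30.3, 35.5 and 37.1 CPM in the control libraries and 96.0, 96.6 and 95.0 CPM with hairpin 1 (1.48 ± 0.08), well apart from the controls. ID1 overlapped between groups and was not called as designed (0.26 ± 0.16), and was at 0.74 after length correction. FST, follistatin, which binds activins and BMPs, fell from 31.6 to 6.97 CPM (-2.18 ± 0.09), and the ligand gene TGFB1 from 152 to 64.7 CPM (-1.23 ± 0.11). Among 21 WNT and NOTCH genes 8 were higher and 5 lower, with a median of 0.31 (8, 7 and 0.12 corrected, and 0.16 without hairpin 1 replicate 1). The WNT feedback genes AXIN2, at 36.5, 28.4 and 25.1 CPM in the control libraries and 91.9, 94.2 and 95.1 CPM with hairpin 1 (1.64 ± 0.11), and NKD1 (1.55 ± 0.13) rose, and the NOTCH targets HES1, at 44.6, 52.7 and 60.6 CPM in the control libraries and 13.8, 13.3 and 13.8 CPM with hairpin 1 (-1.95 ± 0.11), and HEY1 (-1.40 ± 0.19) fell. LGR5, a WNT target and stem cell receptor, was near 0 in both groups. Of 14 YAP targets 7 were lower and 6 higher as designed (7 and 3 corrected), with CCN1 at -0.81, CCN2 at -1.29 and ANKRD1 at -1.40.

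The HOX clusters moved apart. HOX genes encode the factors that set position along the body axis. Of 10 tested HOXA genes 9 were higher and 0 lower, with a median of 1.57 (10, 0 and 1.70 after length correction). Of 9 tested HOXB genes 0 were higher and 5 lower, with a median of -0.41 (0, 4 and -0.17 corrected). The split by cluster was made with these values known, and the 2 medians were not tested against each other. HOXA5 was at 11.9, 12.7 and 11.99 CPM in the control libraries and 58.8, 55.8 and 55.4 CPM with hairpin 1 (2.21 ± 0.10) and HOXA13, at one end of the cluster, at 11.3, 9.05 and 10.3 CPM in the control libraries and 56.7, 57.2 and 55.6 CPM with hairpin 1 (2.46 ± 0.09). HOXA3 (1.63 ± 0.07) and HOXA10 (1.55 ± 0.13) rose as well, and HOXA2 by less (0.57 ± 0.19), a call lost without hairpin 1 replicate 1 or 2 or control replicate 1 or 2 (edgeR adjusted p = 0.0645 to 0.0895). HOXA13 lies at chr7:27193503-27200106 on the minus strand (GRCh38, GENCODE v29). Neighbouring HOX transcripts overlap and the protocol names no strand-marking step, so reads of HOXA antisense transcripts could not be told apart from those of HOXA genes.

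Epithelial identity changed gene by gene. Of 31 junction and keratin genes 10 were higher and 12 lower, with a median of -0.11 (10, 11 and -0.15 corrected, 0.25 on the TPM scale, and -0.18 without control replicate 1). KRT20, a keratin of differentiated gut epithelium, was at 10.3, 11.3 and 11.1 CPM in the control libraries and 48.0, 47.7 and 46.5 CPM with hairpin 1 (2.12 ± 0.07). KRT23 stood at 2534, 2790.3 and 2842 CPM in the control libraries and 999, 944 and 962 CPM with hairpin 1 (-1.49 ± 0.07). The tight junction genes CLDN1 (-1.83 ± 0.10) and CLDN7 (-1.22 ± 0.11) fell, and CDH1 rose by 0.92 ± 0.18 at a low level. EPCAM was not called as designed (-0.16) and was at 0.19 corrected, while KRT8 was at -0.47 and -0.16. VIM, vimentin, went from 14.4 to 4.79 CPM (-1.59 ± 0.17). Of 23 listed mesenchymal genes 11 passed the filter, of which 6 were lower and 3 higher (6 and 1 corrected). Among 13 tested genes of gut lineage 5 were higher and 5 lower (4 and 4 corrected). SOX2, a foregut and stomach factor, rose from 1.32 to 5.48 CPM (2.05 ± 0.15), and SOX9 by 0.83 ± 0.10. FOXA2 (-1.68 ± 0.18) and KLF5 (-0.95 ± 0.11) fell.

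Genes of cell division shifted by small amounts. Of 26 spindle checkpoint, mitotic kinase and cyclin genes 11 were higher and 7 lower, with a median of 0.14 (15, 5 and 0.20 corrected). CCNA2, cyclin A2, was at 93.9, 93.3 and 92.1 CPM in the control libraries and 143, 132 and 138 CPM with hairpin 1 (0.57 ± 0.08), CDK1 at 125, 124 and 119 CPM in the control libraries and 164, 156 and 162 CPM with hairpin 1 (0.39 ± 0.07), and BUB1B, a checkpoint kinase, at 0.56 ± 0.11. MAD2L1 was at 0.42 ± 0.06 and lost its call after length correction (0.08). FOXM1, the factor that drives mitotic genes, fell by 0.51 ± 0.07. Of 39 replication genes 17 were higher and 12 lower, with a median of 0.12 (19, 9 and 0.13 corrected). RRM2, a subunit of ribonucleotide reductase, was at 289, 272 and 233 CPM in the control libraries and 428, 428 and 439 CPM with hairpin 1 (0.71 ± 0.10). MCM4 rose (0.61 ± 0.08), CDC45 fell (-0.60 ± 0.08), and PCNA was at -0.05 as designed and 0.36 corrected. Inner kinetochore genes were higher in 5 of 21 and lower in 10, and in 5 and 4 after correction, with medians of -0.08 and 0.01. CENPA, the centromeric histone, was at -0.45 ± 0.10 and lost its call after correction (-0.07), as did CENPH (-0.47, then -0.07). In the 13 SKA and outer kinetochore genes 3 were higher and 6 lower (5 and 4 corrected), among them SPC24 (-0.74 ± 0.11) and MIS12 (0.41 ± 0.10).

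Of the 27 tested neighbours of SKA2 on 17q22-q23, 15 were higher and 2 lower, with a median of 0.30 (11, 4 and 0.22 corrected). Among them RPS6KB1, the S6 kinase, was at 102, 84.1 and 68.9 CPM in the control libraries and 157, 162 and 164 CPM with hairpin 1 (0.92 ± 0.14), and BRIP1, a helicase of DNA repair, rose by 1.07 ± 0.20. SMG8 (0.39 ± 0.07) and GDPD1 (0.37 ± 0.13) rose by less, and GDPD1 lost its call without hairpin 1 replicate 2 or control replicate 3 (edgeR adjusted p = 0.0716 to 0.0964). PPM1E, a protein phosphatase at a low level, fell (0.760, 0.775 and 1.15 CPM in the control libraries and 0.131, 0.259 and 0.254 CPM with hairpin 1, -2.02 ± 0.50, and -2.55 corrected) and was named after its values were seen. Its call was lost with limma on log2(TPM + 1), at -0.15 (adjusted p = 0.0587). RAD51C was lower as designed (-0.56 ± 0.09) and not called after correction (-0.09).

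In some gene families the 2 fits gave different counts. Of 79 cytosolic ribosomal protein genes, with a median effective length of 503 bp, 72 were lower and 0 higher as designed, with a median of -0.54. After length correction 23 were lower and 17 higher, with a median of -0.04. RPS6 was at 1995, 2585 and 2807 CPM in the control libraries and 1829.5, 1728 and 1779 CPM with hairpin 1, where control replicate 1 was nearest to hairpin 1, and its value went from -0.47 to -0.07. It lost its call without control replicate 3 (edgeR adjusted p = 0.0544). Without control replicate 1 the family's median was -0.69 with 79 lower, and without control replicate 3 it was -0.40 with 44 lower. The 60 respiratory chain genes (median effective length 515 bp) gave 42 lower and 2 higher with -0.50, and 25 lower and 13 higher with -0.11 after correction. The 12 genes of microRNA processing have long transcripts (median 7965 bp) and went the other way, with 8 higher, 2 lower and a median of 0.90, against 4, 2 and 0.08 after correction. DICER1, which cuts microRNA precursors, kept a rise (1.54 ± 0.26 as designed, 0.83 corrected), and AGO2, which carries microRNAs, did not (0.84, then 0.00). Replication-dependent histones (median effective length 258 bp) were higher in 0 of 19 and lower in 2 as designed and higher in 8 and lower in 0 after correction. Only 19 of the 36 listed histones passed the filter. RNA was selected with poly(A) beads, and most replication-dependent histone mRNAs lack a poly(A) tail, so these counts may not reflect their level. Ribosomal protein and histone genes have many near-identical copies, so single members are uncertain.

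**Figure D4:**
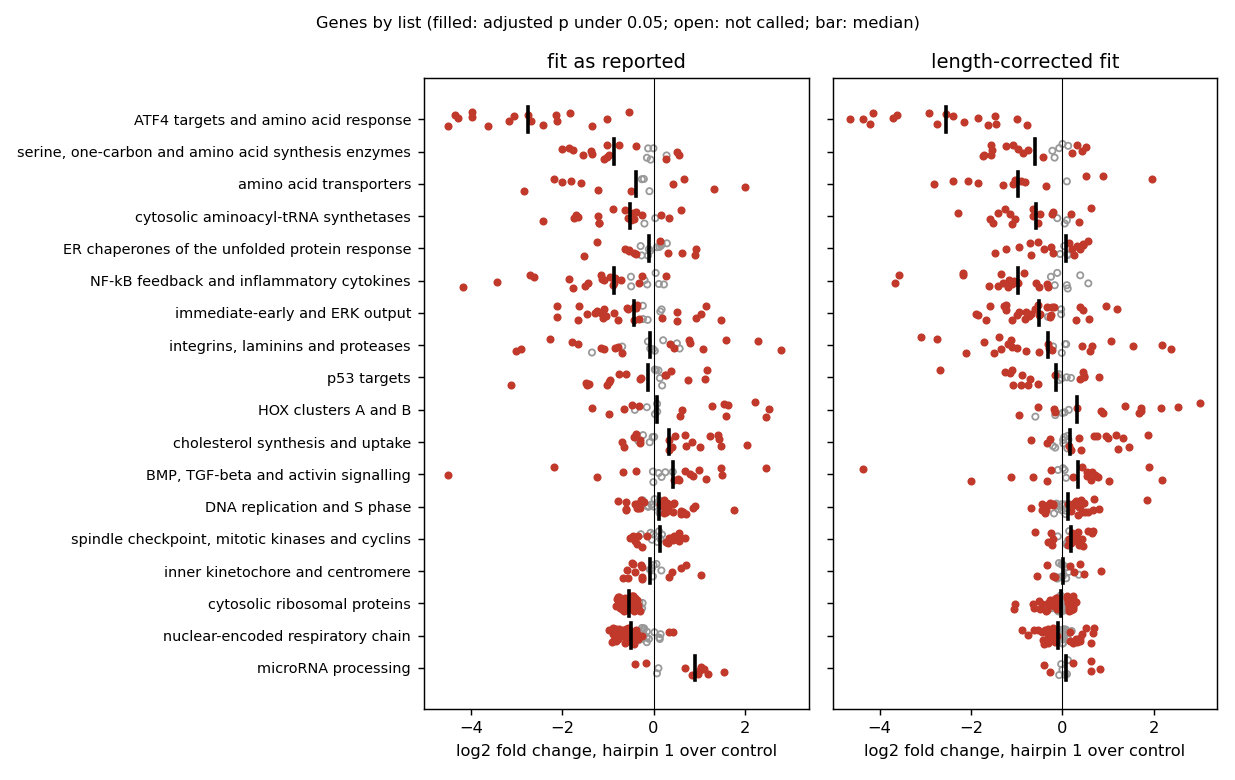
Log2 fold change of hairpin 1 over control (horizontal axis) for the genes of 18 lists, 1 point per gene, in the fit as designed (left) and after length correction (right). Filled points were called, open ones were not, and bars are medians. The ATF4 list lies wholly below 0 in both panels (medians -2.75 and -2.54), while the ribosomal protein median moves from -0.54 to -0.04.

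Most of the remaining lists held members that moved both ways. Of 41 interferon response genes 10 were higher and 12 lower, with a median of -0.12 (-0.07 corrected, 0.08 on the TPM scale, -0.04 without control replicate 1 and -0.02 without hairpin 1 replicate 1). OASL (-2.42 ± 0.18) and IRF7 (-1.31 ± 0.13) fell and PARP14 (1.11 ± 0.12) rose. The 17 MHC class I and peptide loading genes gave 4 higher and 6 lower with a median of -0.13, against 8 and 5 with 0.22 corrected. Leaving out 1 library took the lower count to 2 (control replicate 2 or hairpin 1 replicate 3) or 3 (control replicate 3 or hairpin 1 replicate 2), and the median to -0.08 and -0.05 without control replicates 2 and 3. HLA genes share sequence, so that their counts are uncertain. HLA-B was at -0.31, called in the fit as designed but not on leaving out any library other than control replicate 1 (edgeR adjusted p = 0.0698 to 0.157), and then 0.05, and ERAP1 rose in both (1.18 and 0.90). In 27 glycolysis and hypoxia genes 8 rose and 9 fell (11 and 10 corrected), with NDRG1 at -1.46 ± 0.06 and P4HA1 at 1.16 ± 0.09. Lysosome and autophagy genes were lower in 13 of 23 and higher in 1 (9 and 3 corrected), with MAP1LC3B, a coat protein of autophagosomes, at 358, 362 and 352 CPM in the control libraries and 136, 136 and 139 CPM with hairpin 1 (-1.38 ± 0.05). Of 18 NRF2 and glutathione genes 4 were higher and 5 lower (6 and 5 corrected). HMOX1 fell (-0.75 ± 0.15), and GCLM (0.66 ± 0.15), GCLC (0.65 ± 0.12) and GSR (0.56 ± 0.11) rose. The 30 MYC and ribosome biogenesis genes gave 7 higher and 18 lower, with a median of -0.23 (-0.14 corrected, 0.14 on the TPM scale), and MYC itself was at 0.15 ± 0.07 without a call. Glucocorticoid targets were higher in 3 of 12 and lower in 7 (3 and 5 corrected), ERRFI1 being at -1.29 ± 0.10. In that list NR3C1, the receptor gene, gave 545 reads over the 3 control libraries and 1072 over the 3 hairpin 1 libraries. FKBP5 gave 1876 and 2887 reads. Of 4 tested secretory granule and neuronal genes 1 was called, SCG2, which rose.

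The largest single changes were found mostly in genes of low level. The 15 largest falls held, besides CCL20 and the stress and angiogenic genes above, VIP, a neuropeptide gene (2.91, 3.94 and 3.95 CPM in the control libraries and 0.392, 0.195 and 0.127 CPM with hairpin 1), MIOX, the inositol oxygenase, KLHDC7B, LOC102723728 and RAET1L. The last, at -3.74, is uncertain because of near-identical copies, and KLHDC7B gave 164 reads over the 3 control libraries and 5 over the 3 hairpin 1 libraries. Among the 15 largest rises SCG2, a secretogranin, was at 0.950, 1.94 and 1.72 CPM in the control libraries and 13.5, 13.3 and 12.9 CPM with hairpin 1 (3.10 ± 0.17). MAP2K6, a kinase that activates p38, was at 1.96, 2.07 and 2.10 CPM in the control libraries and 14.4, 14.7 and 14.7 CPM with hairpin 1 (2.83 ± 0.17), narrow in both groups. MEF2C, a target of p38 (3.02 ± 0.29), CYP26A1, which breaks down retinoic acid (2.80 ± 0.20), SLCO1C1, a thyroid hormone carrier (3.78 ± 0.58), and CCDC170 (2.71 ± 0.20) rose. The others were DNAAF1, ZBED6, ZBTB20, POMK, ITGB8, HMCN1, CD37, POTEF and POTEE, with log2 fold changes between 2.62 and 3.36. POTEF and POTEE are near-identical copies, and ZBED6 lies within another gene, so their values are uncertain. In ZBED6 control replicate 1 (4.24 CPM) lay far above the other controls (0.775 and 0.191 CPM).

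Among abundant genes with at least 2-fold changes SYTL2, a vesicle tether, was at 846, 607 and 524 CPM in the control libraries and 2381, 2422 and 2334 CPM with hairpin 1 (1.85 ± 0.17, and 1.65 corrected). KITLG, the ligand of the receptor KIT, was at 168, 119.5 and 90.0 CPM in the control libraries and 679.9, 673 and 669 CPM with hairpin 1 (2.42 ± 0.24, and 2.09 corrected). ARHGAP29, RHOBTB3, ITPRID2, FAM3C, DDX3X and PDP1 rose by 1.05 to 1.25 and kept their call after correction. Among the abundant falls were MT2A and MT1E, metallothioneins, TMSB10, PFN1 and ACTG1 of the actin system, KRT23 and S100A6. ACTG1 was at 3182, 3862 and 4195 CPM in the control libraries and 1713, 1642 and 1665 CPM with hairpin 1 (-1.16 ± 0.10, and -0.88 corrected), with reads that can be shared with other actin genes. MT1E was at 220.4, 284 and 335 CPM in the control libraries and 78.3, 72.5 and 72.7 CPM with hairpin 1 (-1.91 ± 0.17, and -1.25 corrected), and the metallothioneins are a family of similar copies. TMSB10, PFN1 and MT2A have short transcripts, and their falls of 1.14, 1.04 and 1.20 became -0.48, -0.50 and -0.52 after correction.

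Hairpin 1 was last compared with the other 2 hairpins, in differences that use no control library, with the spread estimated over all 12 libraries. The log2 difference of hairpin 3 replicate 1 from its replicates 2 and 3 had SDs over genes of 0.43 and 0.494. These lay within the range of the control pairs, and no library of hairpin 2 or 3 was left out in turn. Against each of hairpins 2 and 3, 263 genes were higher (2.04% of those tested) and 209 lower (1.62%), together 472. With any 1 hairpin 1 library left out the total fell to between 131 and 149, and in the length-corrected fit it was 768. FOS stood apart most in the lower direction. It was at 28.7 CPM on average in the controls, 6.65 CPM with hairpin 1, 56.6 CPM with hairpin 2 and 104 CPM with hairpin 3. OASL, MUC6, a gastric mucin, PLAAT4, ZFP36, which destabilises cytokine mRNA, and NR4A1, a nuclear receptor of the immediate-early class, followed. Some of these rest on few reads. PLAAT4 gave 13 reads over the 3 control libraries and 18 over the 3 hairpin 1 libraries, so it was not lower than in the controls. MUC6 gave 128 and 42 reads, and OASL 180 and 33. NR4A1 stood at 51.9, 55.6 and 59.6 CPM in the control libraries and 27.1, 24.8 and 25.8 CPM with hairpin 1, and at -1.43 against hairpin 2 and -1.79 against hairpin 3. ZFP36 was at -1.59 and -1.44. In the higher direction CYP24A1, which breaks down vitamin D, was at 25.7, 20.7 and 17.4 CPM in the control libraries and 109, 107 and 105 CPM with hairpin 1, with means of 23.1 and 40.0 CPM under hairpins 2 and 3. PKDREJ, SYT12, CAMK2N1, KRT39 and SLCO1C1 were the others of the 6 largest. CAMK2N1, an inhibitor of a calmodulin kinase, was lower than in the controls with hairpin 1 (-0.64) and lower still with the others (-3.83 and -1.96). The 3 comparisons with the control share their control libraries, so no overlap between them is given.

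**Figure D5:**
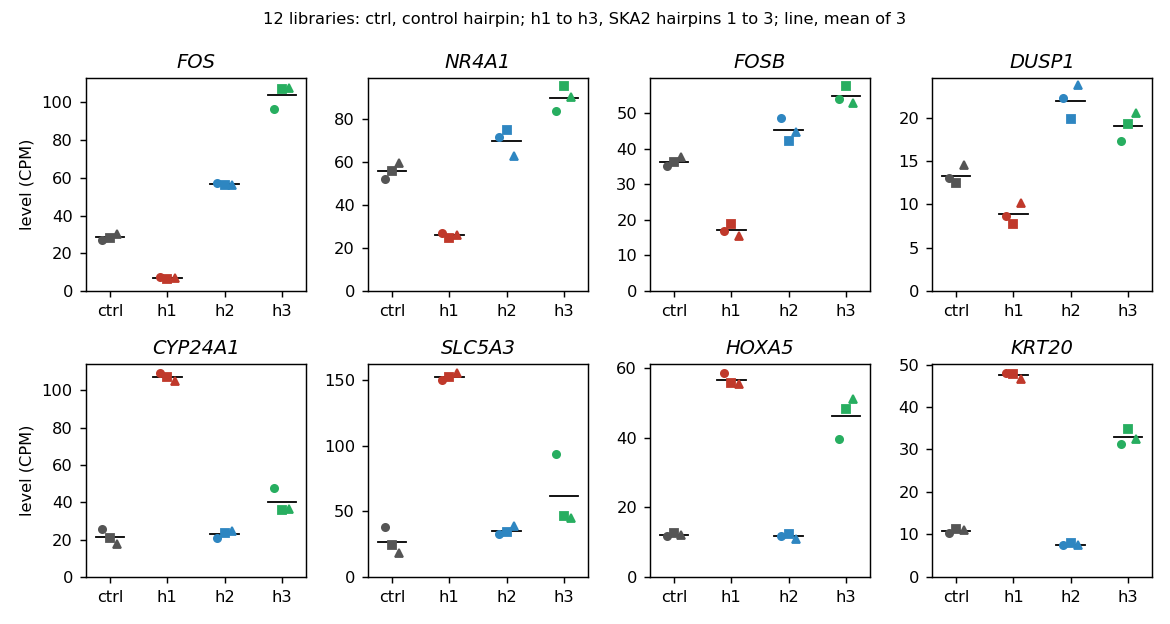
Level in CPM (vertical axes, from 0) of 8 genes in the 12 libraries, with the control hairpin (ctrl) and SKA2 hairpins 1 to 3 (h1 to h3). Points are libraries and lines are means of 3. FOS, NR4A1, FOSB and DUSP1 lie below the controls with hairpin 1 and above them with hairpins 2 and 3, while CYP24A1 is highest with hairpin 1. HOXA5 and KRT20 are also high with hairpin 3 and not with hairpin 2, and SLC5A3, HOXA5 and KRT20 were chosen after their values were seen.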

How the data were processed

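The authors deposited 1 table with estimated counts, FPKM and TPM per gene for 12 libraries. HISAT, Bowtie2, RSEM and DESeq2 are listed with GRCh38.p13, per the submitters' processing notes, and which step each served, and in which version, is not given in the sources used here. Expected counts, as the authors deposited them, are not normalized, the deposited FPKM are per transcript length and library size, and the deposited TPM are scaled per library. Per the labels' protocols RNA was selected with poly(A) beads and primed with random hexamers, and no strand-marking step is named. The table's other 15 columns of values were not used.

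After rounding the expected counts to integers, they were fitted with edgeR 4.0.16 in R 4.3.3 (filterByExpr, TMM, quasi-likelihood test, 1 factor with 4 levels over the 12 libraries, 8 residual degrees of freedom). Benjamini-Hochberg adjustment ran over all 12868 tested genes, and a gene was called at an adjusted p under 0.05. The standard error is the log2 fold change divided by the square root of the test's F. CPM are counts scaled to the library's total times its TMM factor. Over the 6 libraries the totals lay between 14988007 and 16739155 and the factors between 0.937 and 1.025. Transcript length is the effective length derived from the deposited counts and FPKM, not the full length of the transcript. The length-corrected fit used an offset per library from a lowess trend (span 0.3). Alternatives were DESeq2 1.42.0, limma 3.58.1 on log2(TPM + 1), no expression filter, the 6 libraries alone, a replicate block and each of the 6 left out. A limma voom fit with weights per group was chosen after seeing the data.

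Replicate numbers showed no sign of pairing: same-numbered control and hairpin 1 libraries had deviations from their group means correlated at -0.13, -0.04 and -0.01 across genes. The hairpin 1 libraries differed little from each other, so this check cannot decide whether the libraries were paired. The members, the 39 gene lists and the tests were chosen with earlier results of these data known. Named were SKA2, SKA1, SKA3 and PRR11, the 15 largest called rises and falls at 1 CPM or more without overlap, the 8 most abundant 2-fold changes each way, the first 3 members of each list with up to 5 called members of smallest adjusted p, and the 6 genes each way that set hairpin 1 most apart from hairpins 2 and 3. Some genes that meet this rule are not reported here. The text names some of the others, and list members beyond the rule were chosen after their values were seen. Promoters were RefSeq's, of GRCh38.p14, with 250 bases before the start searched.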

Additional observations from a re-analysis of the deposited data

Results flagged for a closer look

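For 15 genes hairpin 1 was called in 1 direction against the control while hairpins 2 and 3 were both called in the other, and the difference of hairpin 1 from each of the other 2 was itself called in edgeR. Of these, 8 were lower and 7 higher with hairpin 1. The immediate-early genes FOS (-2.11), NR4A1 (-1.10) and FOSB (-1.09) and the phosphatase gene DUSP1 (-0.59) had the largest log2 fold changes against the control among the lower ones. FOS was at 0.98 with hairpin 2 and 1.85 with hairpin 3. The other lower genes were ADM (-0.32), which encodes adrenomedullin, the histone gene H2BC21 (-0.31), TP53I3 (-0.30), a p53 target, and SP110 (-0.26). The higher genes included CPA4 (0.54), a carboxypeptidase gene, LTBP2 (0.41), a matrix protein gene, and SHH (0.41), the hedgehog ligand. AIF1L (0.29), KCTD11 (0.26), PMEPA1 (0.25) and SELENON (0.20) were the others. AIF1L was at -1.51 with hairpin 2 and -0.18 with hairpin 3. The 3 comparisons with the control use the same control libraries.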

How the results depend on the processing

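The direction and call of SKA2 held under every alternative run, at -2.39 to -1.89 on the log2 scale. With limma on log2(TPM + 1) 6462 genes were higher and 1733 lower. The other settings gave 3338 to 4502 higher and 3395 to 4414 lower. Genes apart from hairpins 2 and 3 numbered 768 with the length offset and 131 to 149 with a hairpin 1 library left out. The replicate block gave 4138 higher, 4066 lower and -2.33 for SKA2, and among the genes named it ended the call of HSP90B1 alone. On the TPM scale, whose all-gene median was 0.29, the list medians that turned were p53 0.25, transporters 0.033, interferon 0.0782, MHC class I 0.31, receptor kinases 0.22, epithelial 0.25, MYC 0.14, outer kinetochore 0.357, inner kinetochore 0.316, ER chaperones 0.38, NRF2 0.234 and integrins 0.298. The genes that turned were DUSP6 0.25, EGFR 0.24, EPCAM 0.21, ERBB2 0.29, HLA-B 0.0763, MTHFD1 0.31, NFKBIA 0.13, PCNA 0.33, PRR11 0.57, SHMT1 0.37, SKA3 0.14, SLC7A11 0.19 and TNFAIP3 0.0289. With the length offset the medians of the fatty acid (-0.0735), MHC class I (0.22), YAP (-0.368), outer kinetochore (0.181), inner kinetochore (0.00865), ER chaperone (0.0778) and NRF2 (0.0662) lists turned, as did EPCAM 0.19, FASN -0.23, HLA-B 0.0523, ITGA6 -0.32, MDM2 -0.53, MYC -0.0252, NFKBIA 0.10, PCNA 0.36 and SHMT1 0.13. With 1 library left out, direction turned in some cases for the medians of the receptor kinase (-0.177 to 0.0119), outer kinetochore (up to 0.0088), YAP (down to -0.0313) and glycolysis (down to -0.0626) lists, and for EGFR (-0.291 to 0.153), PRR11 (-0.14 to 0.124), ITGA6 (-0.102 to 0.215), MDM2 (-0.116 to 0.231) and SHMT1 (-0.0268 to 0.0199). Their causes were not tested. Leaving out 1 library took the lower counts of the spindle and sterol lists from 7 and 6 to as few as 3 and 3 (controls 2 and 3, and for sterols also hairpin 1 replicates 1 and 2), and the higher counts of the ER chaperone, mesenchymal and MYC lists from 5, 3 and 7 to as few as 2, 1 and 3 (controls 2 and 3, and for the first and second also hairpin 1 replicate 2). Among low genes a few reads set the fold change, as in MYCT1 with 2 reads over the 3 hairpin 1 libraries.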
